A study of Mus musculus with 18 samples.

Results

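Transcripts of 10 circadian clock genes were compared among young, old and rejuvenated old mouse MSCs. The genes were Arntl (also called Bmal1), Clock, Per1, Per2, Per3, Cry1, Cry2, Nr1d1, Nr1d2 and Dbp, which were picked by symbol from a table of 27179 genes. All 10 were in the table, and all 10 passed the minimum mean of 10 normalized counts that left 14353 genes for testing. MSCs are adherent stromal cells that grow out of flushed bone marrow, here from C57BL6 mice aged 6 weeks (young) or 18 to 24 months (old), all male by the study's methods. Young and old MSCs were cultured alone, and rejuvenated old MSCs were old cells that shared the well with young MSCs across a Transwell membrane with 0.4 µm pores, which soluble factors cross and cells do not. All 18 libraries, 6 of each group, were made from RNA of day 7 in the same serum-containing medium. None of the 18 libraries came from old MSCs grown opposite other old MSCs, so the presence of neighbouring cells and the age of those cells cannot be told apart. Each culture was sampled at a single time. The hour of harvest and the time since the last change of medium are not given in the sources used here, so the values are levels at that moment and say nothing of rhythm.

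The clock is a set of interlocking transcription loops that runs in nearly every cell, fibroblasts and stromal cells included. ARNTL and CLOCK pair and activate genes through E-boxes, among them those for the PER and CRY proteins, which return to the nucleus and repress the pair. A further loop runs through the nuclear receptors REV-ERB (Nr1d1 and Nr1d2), which repress Arntl, and ROR, which activates it. Proline- and acid-rich (PAR) bZIP factors such as DBP carry the rhythm to output genes through D-boxes, where NFIL3 opposes them. In culture a change of serum can set the clocks of many cells to the same phase, after which they drift apart.

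The deposited values, called normalized counts below, are reads per gene divided by 1 size factor per library. The libraries held 22936251 to 29559194 reads on genes, and the 10 genes had between 235 and 2941 reads in a library. Groups were compared with limma on log2(normalized count + 1), and a gene was called when its Benjamini-Hochberg adjusted p over all genes tested was under 0.05. Log2 differences refer to that scale. The labels call the 6 libraries of a group biological replicates without saying whether they came from separate mice, so p-values measure the spread between these cultures. All 10 stromal markers were called between young and old MSCs, beside 85.7% of all genes tested. In young MSCs 4 were higher (Ly6a, Pdgfra, Thy1 and Nt5e), beside 41.6% of all genes. The other 6 were lower (Cd44, Pdgfrb, Eng, Vcam1, Cxcl12 and Col1a1), beside 44.1%. The summed normalized counts of the 10 stromal markers were 156600 to 169861 in young, 343622 to 362765 in old and 345576 to 388408 in rejuvenated old MSCs, and without Cxcl12 147450 to 160627, 147498 to 162178 and 125577 to 136409. Thy1 had no more than 3 reads in any old library. Of 8 macrophage and blood cell markers, Ptprc and Adgre1 were at 0 in every young library, and the summed list ran from 7821 to 8112 in young, 11755 to 14974 in old and 11621 to 14370 in rejuvenated old MSCs. Cd34 made up most of the young sum. The other 7 markers summed to 914 to 1034 in young, 11733 to 14950 in old and 11597 to 14330 in rejuvenated old MSCs, with Lyz2 at 153 to 187 in young and 8850 to 11494 in old. Rejuvenated old replicate 1 stood apart in Cd34 (402 normalized counts, group median 39.1) and Thy1 (21.6, group median 0.944), both high in young MSCs. It was not the highest of its group for the other stromal markers that were higher in young MSCs. The highest library was replicate 3 for Ly6a, 6 for Pdgfra and 5 for Nt5e. The 5 endothelial markers summed to 104 to 140, 18 to 40 and 14 to 25. The Y-linked gene Ddx3y had at most 2 reads in any young library but 1590 to 1871 normalized counts in old and 1490 to 1950 in rejuvenated old MSCs although the methods give male donors for all. Xist was at 21.2 to 41.2 in young, 1.97 to 14.4 in old and 4.83 to 10.3 in rejuvenated old MSCs. Why Y-linked reads were missing from young libraries was not tested. Whole chromosomes also differed between young and old MSCs. The median log2 difference over the tested genes was 0.61 on chromosome 7 and −0.69 on chromosome 1, and between −0.19 and 0.19 on the other chromosomes that carry a member. The part of cell makeup, donor sex or chromosome in the differences below was not tested, except that values centred on the chromosome median are given for some genes. In bulk RNA, fewer cells of a type and less RNA per cell cannot be told apart.

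Between young and old MSCs, 7 of the 10 clock genes differed, beside 85.7% of all genes tested. Arntl, Cry1, Cry2 and Nr1d2 were higher in young cells and Clock, Per1 and Per2 were lower, where 41.6% of all genes were called higher and 44.1% lower. The median absolute log2 difference of the 10 genes was 0.37, against 0.60 over all genes. For 6 of the 10 the young and old libraries did not overlap, and the same held for 73.9% of all genes. Between rejuvenated old and old MSCs, 3 of the 10 were called, all lower in rejuvenated old cells, namely Arntl, Nr1d2 and Dbp. Of all genes 41.6% were called here, 21.0% as higher and 20.6% as lower, and the median absolute log2 difference was 0.10 for the clock genes and 0.15 for all genes. Without rejuvenated old replicate 1 the count was again 3, with Nr1d2 at −0.13 (adjusted p = 0.00798) and Dbp at −0.23 (adjusted p = 0.0497). In none of the 10 were rejuvenated old and old libraries fully separated, while they were in 22.0% of all genes. Between rejuvenated old and young MSCs 7 of 10 were called, beside 85.6% of all genes (44.1% higher, 41.5% lower). Clock and Per1 were higher and Arntl, Cry1, Cry2, Nr1d2 and Dbp lower in rejuvenated old cells, and the libraries of 5 genes did not overlap, beside 70.5% of all genes. Rejuvenated old against old and young against old use the same 6 old libraries, so their values below are set side by side without a test of likeness.

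**Figure D1:**
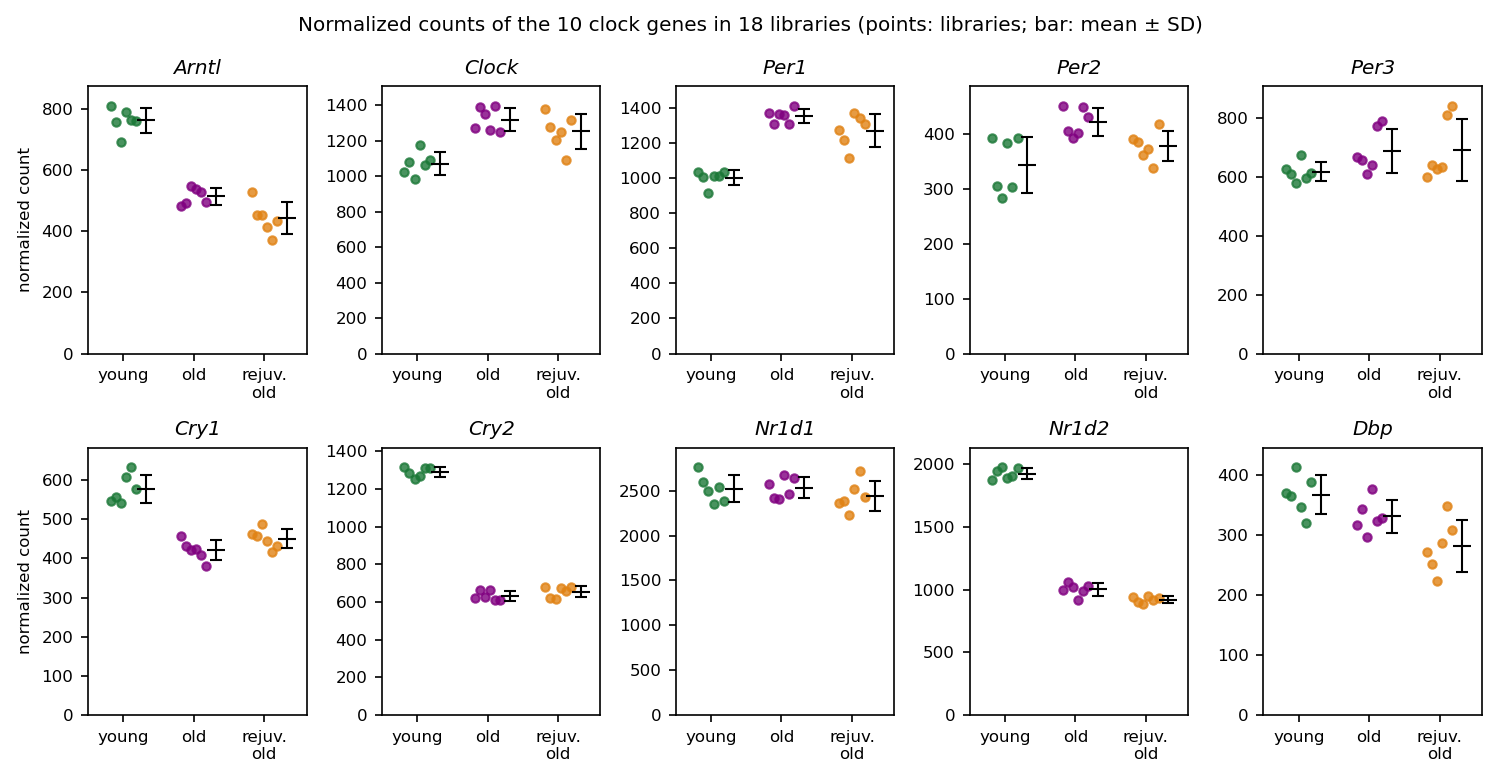
Normalized counts (y axis, linear, from 0) of each of the 10 clock genes in young, old and rejuvenated old MSCs (x axis). Each point is 1 library and the bar beside the points is the mean ± SD of 6 libraries. Cry2 and Nr1d2 show the widest gap between young and both old groups, Nr1d1 lies at the same height in all 3, and no gene has rejuvenated old libraries wholly clear of the old ones.

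Arntl, the obligate partner in the activating pair (gene 11865, chromosome 7, 113178471 to 113314126 in mm10), stood at 692 to 809 normalized counts in young MSCs (median 762), 483 to 546 in old (median 512) and 370 to 529 in rejuvenated old (median 443). All young libraries lay above all old ones, and 5 of the 6 rejuvenated old libraries lay below the lowest old library. The log2 difference was 0.57 between young and old (95% interval 0.43 to 0.70, adjusted p = 2.55e-08, limma), a 1.48-fold higher level in young cells. After co-culture Arntl was lower still, by −0.22 against old (−0.36 to −0.09, adjusted p = 0.00767), which put rejuvenated old cells at −0.79 against young (adjusted p = 8.41e-11). Rejuvenated old replicate 1, the library with raised Cd34 and Thy1, had the highest value of its group, at 529. With single libraries left out, the difference between rejuvenated old and old ran from −0.28 without that replicate (adjusted p = 0.000463) to −0.17 without rejuvenated old replicate 5 (adjusted p = 0.0217). The young-old difference was no larger than that of its chromosome. Centred on the chromosome 7 median it was −0.03 (adjusted p = 0.642), while the difference between rejuvenated old and old was −0.28 when centred (adjusted p = 0.00182). Between rejuvenated old and young the chromosome median was −0.56, and the centred Arntl difference was −0.25 (adjusted p = 0.00185). The spread of Arntl rose after co-culture, from a coefficient of variation of 5.21% in old to 12.0% in rejuvenated old MSCs (young, 5.23%), a difference that was not tested.

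REV-ERB and ROR receptors compete for the same response element, and Arntl is the textbook gene with a pair of them near its start site. The core letters AAAGTAGGT, searched on both strands in RefSeq promoter windows of GRCm38.p6 (250 bases before to 50 after each start), were found in 0.183% of 32851 windows. Arntl held them at −10 and 27, counted from its downstream start site as 1, and no other member with a window held them. They are shown because Arntl differs between the groups while both receptors that bind them were measured. The capitals mark the core in these neighbouring stretches, given 5′ to 3′ on the + strand, chr7:113207495-113207524 and chr7:113207525-113207554.
Arntl first element: ggtcggAAAGTAGGTtagtggtgcgacatt
Arntl second element: tagggaaggcagAAAGTAGGTcagggacgg

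Clock, the DNA-binding partner of ARNTL (gene 12753, chromosome 5, 76209868 to 76305603), went the opposite way. Its normalized counts were 983 to 1179 in young (median 1072), 1252 to 1398 in old (median 1311) and 1090 to 1381 in rejuvenated old MSCs (median 1264). Young libraries were all below the old ones, and rejuvenated old libraries overlapped both groups. The log2 difference was −0.30 for young against old (−0.41 to −0.19, adjusted p = 1.16e-05) and 0.22 for rejuvenated old against young (adjusted p = 0.000382). Rejuvenated old and old MSCs differed by −0.08 with an interval of −0.19 to 0.03, which missed the threshold (adjusted p = 0.246). Before centring, the partners of the activating pair thus moved apart between young and old cells, with more Arntl and less Clock transcript in young ones. Centred on their chromosomes, Arntl was at −0.03 (adjusted p = 0.642) and Clock at −0.31 (adjusted p = 5.55e-06).

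The PERIOD genes encode repressors that build up and are broken down in every cycle. Per1 (gene 18626, chromosome 11, 69095108 to 69109965) had 918 to 1036 normalized counts in young (median 1013), 1310 to 1414 in old (median 1366) and 1118 to 1374 in rejuvenated old MSCs (median 1292). Every young library was below every library of both other groups. The log2 difference was −0.43 for young against old (−0.53 to −0.34, adjusted p = 4.18e-09) and 0.34 for rejuvenated old against young (adjusted p = 2.4e-07). Co-cultured cells differed from old ones by −0.10 (adjusted p = 0.0913). Per2 (gene 18627, chromosome 1, 91415977 to 91459351) was the most scattered member in young MSCs, at 284 to 392 normalized counts (median 344, coefficient of variation 14.8%). Old libraries had 392 to 451 (median 418) and rejuvenated old libraries 337 to 417 (median 379). The young libraries lay in 2 sets, 3 at 284 to 305 and 3 at 383 to 392, the upper of which reached the lowest old library. The log2 difference of −0.31 between young and old was called (−0.47 to −0.14, adjusted p = 0.00122), and those of −0.16 between rejuvenated old and old (adjusted p = 0.115) and 0.15 between rejuvenated old and young (adjusted p = 0.0931) were not. Against its chromosome Per2 changed sign. Genes of chromosome 1 were lower in young MSCs by a median of −0.69, and centred on it Per2 was 0.38 higher in young than in old (adjusted p = 0.00013) and −0.53 in rejuvenated old against young (adjusted p = 2.21e-06).

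Per3, the member of the family that is least needed for rhythm (gene 18628, chromosome 4, 150997018 to 151044707), was not called in any comparison. It had 580 to 675 normalized counts in young (median 611), 609 to 788 in old (median 661) and 599 to 841 in rejuvenated old MSCs (median 636). The 3 groups overlapped, and the log2 differences were −0.15 for young against old (adjusted p = 0.0833), 0.00 for rejuvenated old against old (interval −0.17 to 0.17, adjusted p = 0.998) and 0.15 for rejuvenated old against young (adjusted p = 0.0826). The width of the old and rejuvenated old ranges came from the libraries titled replicate 5 and 6. In old MSCs these were at 774 to 788 while replicates 1 to 4 were at 609 to 666, and in rejuvenated old MSCs they were at 811 to 841 against 599 to 641. Young replicates 5 and 6, at 597 to 614, lay among their own group. This split was noticed after the values were seen, and it has no test. Of all 14353 genes, 223 (1.55%) had replicates 5 and 6 above the others in both old groups, and 550 (3.83%) had them above or below in both. Among the clock genes Cry1 showed the opposite pattern, with 380 to 410 in old replicates 5 and 6 against 422 to 458 in the others, and 417 to 433 against 445 to 487 in rejuvenated old MSCs. The labels do not say what the replicate numbers share.

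**Figure D2:**
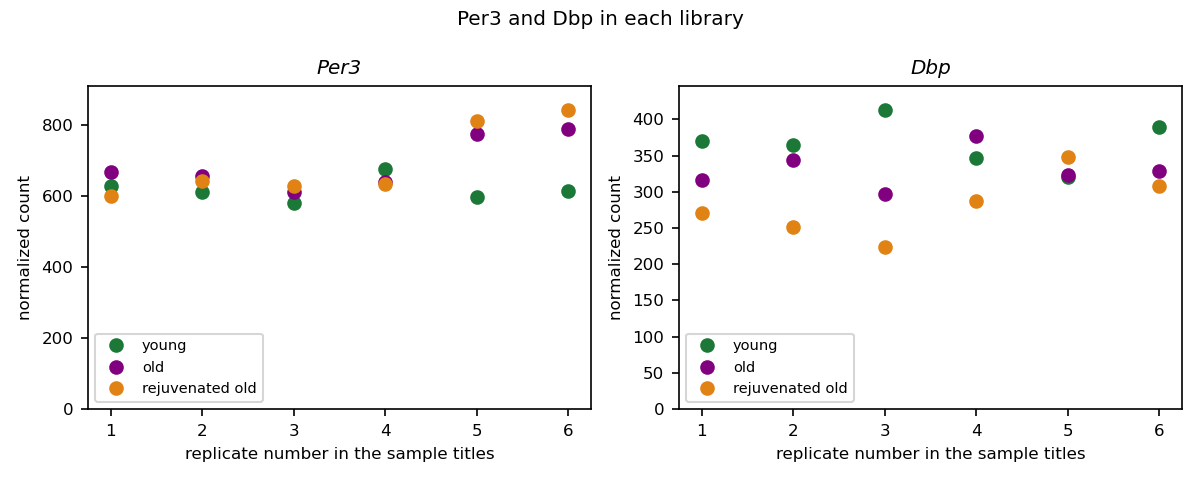
Normalized counts (y axis, linear, from 0) of Per3 (left) and Dbp (right) in each library against the replicate number in its title (x axis), with colours for the 3 groups. Old and rejuvenated old replicates 5 and 6 stand above the other Per3 values, at 774 to 841, while the young libraries show no such gap. Rejuvenated old replicates 5 and 6 have the highest Dbp values of their group, at 308 to 348.

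Promoter letters also differ among the repressors. Searched on both strands in the same windows, the E-box CACGTG was in 7.15% of all windows, its variant CACGTT in 4.68%, the D-box TTATGTAA or TTACGTAA in 1.06% and the cAMP response element TGACGTCA in 1.79%. Windows existed for 9 of the 10 members, 13 windows in all, with none for Per2 in the table used. Per1 held an E-box at −166. Cry1 held an E-box at −60 and the variant at −79. Cry2 held the variant at −166 and Nr1d1 at −28, and Per3 held the D-box at both −205 and −158. The other members held none of these letters in their windows, which says nothing of elements farther away. A match is a description of letters and not a site shown to be bound. The stretches below carry the matches in capitals and run 5′ to 3′ on the gene's own strand, from RefSeq on GRCm38.p6, as background to the levels of the E-box and D-box genes. Per1 is chr11:69098759-69098948 on the + strand, and on the − strand are Per3 at chr4:151044666-151044885, Cry1 at chr10:85185055-85185154, Cry2 at chr2:92434070-92434259 and Nr1d1 at chr11:98775378-98775437.
Per1: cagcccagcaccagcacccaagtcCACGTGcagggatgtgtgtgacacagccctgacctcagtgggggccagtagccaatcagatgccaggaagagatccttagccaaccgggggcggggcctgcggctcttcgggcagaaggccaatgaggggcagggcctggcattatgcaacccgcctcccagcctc
Per3: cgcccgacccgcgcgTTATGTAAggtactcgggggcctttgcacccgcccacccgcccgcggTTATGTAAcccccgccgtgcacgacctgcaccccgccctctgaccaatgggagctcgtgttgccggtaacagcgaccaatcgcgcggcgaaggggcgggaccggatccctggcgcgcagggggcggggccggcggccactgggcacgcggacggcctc
Cry1: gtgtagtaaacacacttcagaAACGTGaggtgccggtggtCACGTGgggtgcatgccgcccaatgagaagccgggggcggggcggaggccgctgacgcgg
Cry2: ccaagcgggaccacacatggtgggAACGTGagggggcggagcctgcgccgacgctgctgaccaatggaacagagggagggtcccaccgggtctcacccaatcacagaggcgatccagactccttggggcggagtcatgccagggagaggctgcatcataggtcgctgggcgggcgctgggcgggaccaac
Nr1d1: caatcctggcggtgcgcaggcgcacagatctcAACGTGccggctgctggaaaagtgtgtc

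The cryptochromes, the strongest repressors of the ARNTL and CLOCK pair, were both higher in young MSCs. Cry1 (gene 12952, chromosome 10, 85131700 to 85185054) had 543 to 633 normalized counts in young (median 568), 380 to 458 in old (median 424) and 417 to 487 in rejuvenated old MSCs (median 452). Young libraries were all above those of the other groups, which overlapped each other. The log2 difference was 0.45 for young against old (0.34 to 0.56, adjusted p = 4.48e-08) and −0.36 for rejuvenated old against young (adjusted p = 1.75e-06), and rejuvenated old against old, at 0.10, missed the threshold (adjusted p = 0.16). Cry2 (gene 12953, chromosome 2, 92403646 to 92434085) showed the widest young-old difference of the 10 genes. It had 1255 to 1315 normalized counts in young (median 1296), 609 to 666 in old (median 624) and 617 to 679 in rejuvenated old MSCs (median 667). The young libraries were tight, with a coefficient of variation of 1.95%, and lay far above the rest. The log2 difference was 1.03 (0.95 to 1.11, adjusted p = 2.33e-17), a 2.04-fold higher level in young cells. Co-culture left it at 0.05 against old, with an interval of −0.03 to 0.13 (adjusted p = 0.322), and at −0.98 against young (adjusted p = 6.05e-17). Centred on their chromosomes the young-old differences were 0.65 for Cry1 and 1.11 for Cry2.

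The REV-ERB receptors, which close the loop on Arntl, behaved unlike each other. Nr1d1 (gene 217166, chromosome 11, 98767932 to 98775377) had 2348 to 2761 normalized counts in young (median 2517), 2409 to 2673 in old (median 2522) and 2226 to 2725 in rejuvenated old MSCs (median 2411). The 3 groups overlapped, and the intervals were narrow, from −0.10 to 0.09 for young against old (adjusted p = 0.903) and from −0.15 to 0.04 for rejuvenated old against old (adjusted p = 0.385). Against young, rejuvenated old cells differed by −0.05 (adjusted p = 0.345), which became −0.14 and a call when libraries were scaled to the same total (adjusted p = 0.00859). Nr1d2 (gene 353187, chromosome 14, 18204056 to 18239106) had 1874 to 1977 normalized counts in young (median 1924), 916 to 1060 in old (median 1011) and 883 to 951 in rejuvenated old MSCs (median 926). Young libraries lay far above all others, and 3 of the rejuvenated old libraries lay below the lowest old one. The log2 difference was 0.94 for young against old (0.87 to 1.02, adjusted p = 3.32e-17), a 1.92-fold higher level. It was −0.12 for rejuvenated old against old (−0.19 to −0.05, adjusted p = 0.00783), in the direction away from young, and −1.06 for rejuvenated old against young (adjusted p = 3.44e-18).

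Dbp, a PAR bZIP activator that is a direct E-box target and among the most strongly cycling transcripts in tissues (gene 13170, chromosome 7, 45705100 to 45710203), had 320 to 413 normalized counts in young (median 367), 297 to 377 in old (median 326) and 224 to 348 in rejuvenated old MSCs (median 279). Values of all 3 groups overlapped, with 4 rejuvenated old libraries below the lowest old one. The difference of 0.15 between young and old missed the threshold (−0.03 to 0.33, adjusted p = 0.12), although genes of chromosome 7 were higher by 0.61 at the median, and centred on that median it was −0.45 (adjusted p = 3.7e-05). Co-cultured cells had less Dbp, at −0.24 against old (−0.43 to −0.06, adjusted p = 0.031) and −0.39 against young (adjusted p = 0.000299). The first of these calls rested on single libraries. It was lost without old replicate 2 (adjusted p = 0.0569), old replicate 4 (0.0811), rejuvenated old replicate 2 (0.0716) or rejuvenated old replicate 3 (0.0905), with log2 differences between −0.23 and −0.18. The second became 0.16 when centred on the chromosome (adjusted p = 0.0932).

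**Figure D3:**
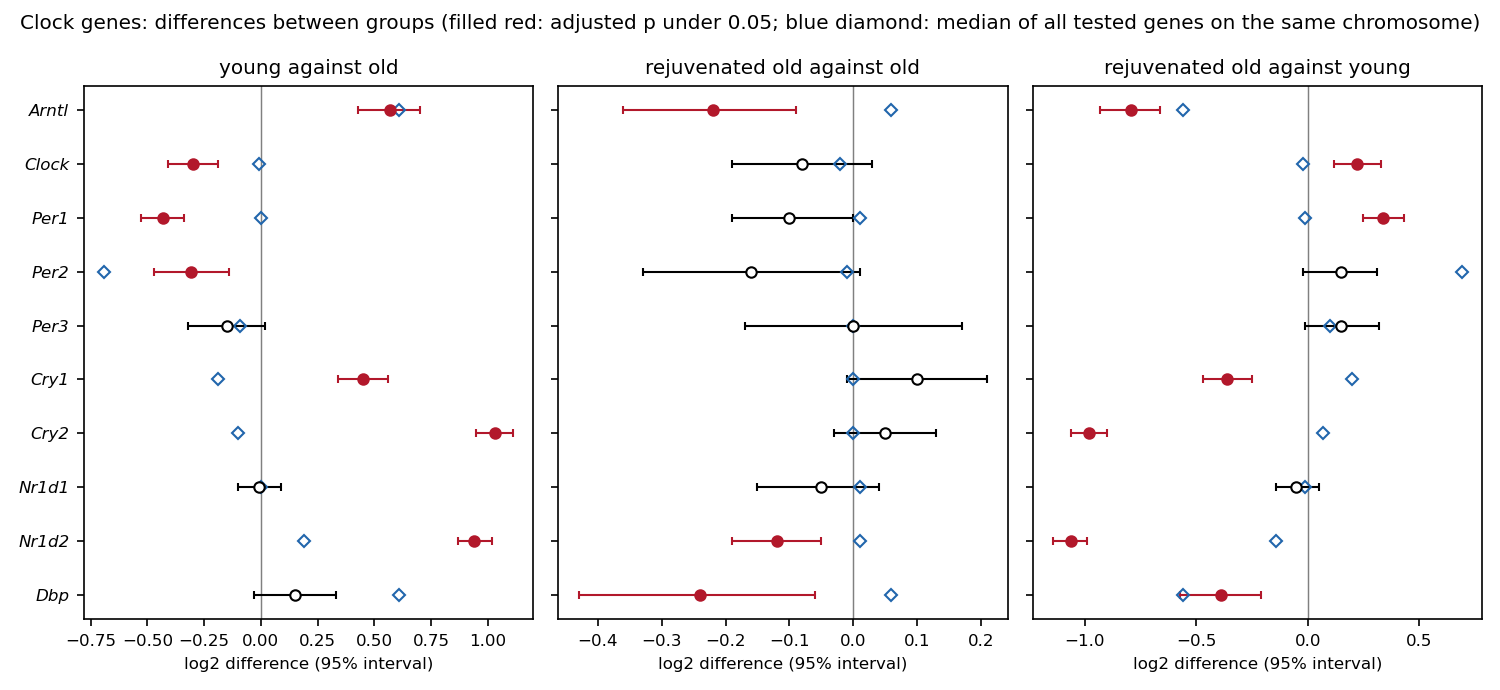
Log2 differences of group means with 95% intervals (x axis) for the 10 clock genes (y axis) in the 3 comparisons. Filled red points have an adjusted p under 0.05, open points do not, and blue diamonds give the median over all tested genes of the same chromosome. In young against old Arntl sits on its chromosome's median of 0.61, Per2 lies above a median of −0.69 and Dbp below one of 0.61, while Cry2 and Nr1d2 lie far from theirs.

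Exons of 4 members overlap a gene on the other strand in GENCODE M21. Nr1d1 shares 263 of 3077 exon bases with Thra, Dbp 539 of 2993 with Sphk2, Cry2 295 of 6320 with D930015M05Rik and Arntl 33 of 7523 with Gm45355. The kit keeps the strand, but the strand setting of the counting is not given in the sources used here. If strand was not used, reads in the shared bases cannot be told apart.

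Levels of different genes can be set beside each other only per length, here as mean normalized counts per kilobase of merged exons. The merged exons take in every annotated transcript of a gene, 7523 bases for Arntl and 13727 for Clock. Which transcripts these cells used was not determined, so the order of genes within a group may change with another length. Nr1d1 led in every group, with 820 ± 48.9 (SD, n = 6) for young, 823 ± 38.0 for old and 794 ± 54.8 for rejuvenated old MSCs, and its range did not touch that of the gene next in order. Next came Nr1d2 in young MSCs, at 356 ± 8.16 per kilobase, followed by Cry2 at 204 ± 3.98 and Per1 at 178 ± 7.71, the last overlapping Cry1 at 173 ± 10.8. In old and rejuvenated old MSCs Per1 took the place after Nr1d1, at 241 ± 7.07 and 226 ± 16.6 per kilobase, and Nr1d2 came after it at 185 ± 9.12 and 170 ± 5.00. Arntl ranked seventh of 10 in young MSCs at 101 ± 5.30 per kilobase and lowest in old and rejuvenated old MSCs, at 68.3 ± 3.56 and 58.7 ± 7.03, where its range overlapped that of the next gene above. Clock, Per2 and Per3 were all under 100 per kilobase in every group by their means.

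Ratios within a library do not depend on its size factor, and they are given as descriptions. The log2 ratio of Nr1d1 to its target Arntl was 1.57 to 1.85 in young (median 1.75), 2.14 to 2.42 in old (median 2.30) and 2.16 to 2.88 in rejuvenated old MSCs (median 2.44). Young libraries were all below the others, which overlapped. The ratio of Cry2 to Cry1 was 1.05 to 1.26 in young, 0.44 to 0.68 in old and 0.34 to 0.66 in rejuvenated old MSCs. That of Nr1d2 to Nr1d1 ran from −0.56 to −0.27 in young and from −1.57 to −1.19 over both other groups. Both ratios were lower in old cells, with or without co-culture, than in any young library. The ratio of Per2 to Arntl was −1.33 to −0.95 in young and −0.48 to −0.06 over the old and rejuvenated old libraries. Ratios to Arntl carry the shift of chromosome 7, and that of Per2 to Arntl also carries the shift of chromosome 1 (median −0.69). Centred on chromosome medians, the young-old differences were −0.03 for Arntl, 0.00 for Nr1d1 and 0.38 for Per2, so that the gap closed for Nr1d1 and turned for Per2.

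Within groups, 3 pairs of clock genes were correlated over the 6 libraries, 9 relations in all, with two-sided exact permutation tests. In rejuvenated old MSCs Nr1d1 and Dbp gave r = 0.92 (exact permutation p = 0.0181, adjusted p = 0.162 over the 9) and rho = 0.89 (exact permutation p = 0.0333, adjusted p = 0.15), and r was 0.51 without the 2 libraries farthest from the Nr1d1 median. Arntl and Nr1d1 gave r = −0.75 (exact permutation p = 0.0847, adjusted p = 0.381) and rho = −0.94 (exact permutation p = 0.0167, adjusted p = 0.15) there, and r was −0.85 without 2 libraries. Arntl and Dbp gave r = −0.61 (exact permutation p = 0.172, adjusted p = 0.505). The same relations had r between −0.57 and 0.24 in young and between −0.18 and 0.55 in old MSCs. None passed after adjustment, and both genes of a pair share each library's size factor.

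Of all other genes tested, those whose log2 values followed Arntl most closely over the 18 libraries were Lancl3 (r = 0.985), Slc20a2 (0.984) and Zfp507 (0.983). Their deviations from the group means had r of 0.878, 0.819 and 0.82 with those of Arntl. These deviations are part of the r by which the genes were picked, so they add no separate evidence. Lancl3 fell from a mean of 106 normalized counts in young to 12.0 in old and 6.36 in rejuvenated old MSCs. For Dbp the likeness was lower, at 0.816 for Mapk14, 0.812 for Hoxc6 and 0.812 for Gpaa1. The r of their deviations was 0.534, 0.525 and 0.557. These values describe a shared course over 3 groups and were not tested.

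The other loop genes, a list of 14 with paralogs, ROR receptors, PAR bZIP factors and further repressors, had larger median differences than all genes. Between young and old MSCs 10 of 14 were called, beside 85.7% of all genes, 5 higher and 5 lower in young, with a median absolute log2 difference of 0.89 beside 0.60 over all genes. Between rejuvenated old and old MSCs 10 of 14 were called, beside 41.6%, 7 higher and 3 lower, with a median absolute difference of 0.34 beside 0.15. Between rejuvenated old and young MSCs 11 were called, beside 85.6%.

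In values not centred by chromosome, paralogs of the activating pair ran opposite to Arntl, whose young-old difference was −0.03 when centred. Npas2, which can stand in for CLOCK, had 87.5 to 122 normalized counts in young, 160 to 198 in old and 223 to 287 in rejuvenated old MSCs. The 3 ranges did not overlap, and the log2 differences were −0.73 for young against old (adjusted p = 3.99e-08) and 0.48 for rejuvenated old against old (adjusted p = 0.000106). It lies on chromosome 1, and the first of these became −0.04 when centred (adjusted p = 0.65). Arntl2, a paralog of Arntl, had 82.7 to 106 in young, 223 to 275 in old and 256 to 329 in rejuvenated old MSCs. Its difference was −1.36 for young against old (adjusted p = 1.09e-13) and 0.23 for rejuvenated old against old (adjusted p = 0.0223), a call lost without old replicate 1 (adjusted p = 0.0566), old replicate 2 (0.0564) or rejuvenated old replicate 6 (0.0593).

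Of the ROR genes, whose products activate Arntl, Rorb was far lower in young cells. It had 12.9 to 18.2 normalized counts in young, 147 to 209 in old and 157 to 188 in rejuvenated old MSCs (log2 difference −3.37 for young against old, adjusted p = 1.88e-18). Rora had 27.8 to 46.9, 37.6 to 63.0 and 29.5 to 69.8, and its difference of −0.29 missed the threshold (adjusted p = 0.145). Neither was called between rejuvenated old and old MSCs, where the adjusted p was 0.541 for Rora and 0.823 for Rorb.

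Among D-box factors, Nfil3, the repressor that opposes DBP, was at 493 to 606 normalized counts in young, 561 to 654 in old and 823 to 979 in rejuvenated old MSCs. Every rejuvenated old library lay above all 12 others, with log2 differences of 0.59 against old (adjusted p = 6.85e-09) and 0.68 against young (adjusted p = 2.37e-11). Tef, an activator of the DBP family, moved the other way, with 3435 to 3723 in young, 3151 to 3771 in old and 2594 to 2970 in rejuvenated old MSCs (−0.32 against old, adjusted p = 3.81e-06). All rejuvenated old Tef values lay below all others. Hlf, another activator of that family, had 238 to 285 in young and 10 to 23.7 in old MSCs (3.88, adjusted p = 3.45e-13), and 5.66 to 17.4 in rejuvenated old MSCs. Its difference of −0.63 from old (adjusted p = 0.0363) was not called by edgeR (adjusted p = 0.0559), under the replicate block (0.0618), without a filter (0.0633), in a fit of those 2 groups (0.0897), or without any 1 of 6 libraries, namely old replicates 1, 3 and 5 and rejuvenated old replicates 1, 5 and 6. The log2 ratio of Nfil3 to Dbp was 0.25 to 0.92 in young, 0.58 to 1.00 in old and 1.41 to 1.96 in rejuvenated old MSCs, so this ratio alone of those given had rejuvenated old libraries clear of the old ones.

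Further repressors of the ARNTL and CLOCK pair split. Bhlhe40 (DEC1) had 3655 to 3967 normalized counts in young, 1199 to 1338 in old and 1489 to 1746 in rejuvenated old MSCs, with differences of 1.59 for young against old (adjusted p = 4.79e-20) and 0.36 for rejuvenated old against old (adjusted p = 3.78e-07). Its paralog Bhlhe41 (DEC2) had 41.6 to 70.9, 96.3 to 129 and 52.3 to 78.3, with differences of −1.02 (adjusted p = 1.56e-06) and −0.72 (adjusted p = 0.000549). For both DEC genes the rejuvenated old libraries were separate from the old ones on the side of the young ones. Ciart, a small repressor of the pair, had 145 to 211, 69.1 to 114 and 99.5 to 186, with differences of 1.01 (adjusted p = 1.75e-06) and 0.64 (adjusted p = 0.00154). Its difference of −0.37 from young in rejuvenated old cells (adjusted p = 0.0285) was lost without young replicate 1 or 6 or rejuvenated old replicate 3 or 4. Timeless, best known for its part in replication forks, had 357 to 396, 600 to 743 and 719 to 904, with differences of −0.78 (adjusted p = 1.9e-11) and 0.28 (adjusted p = 0.000629).

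**Figure D4:**
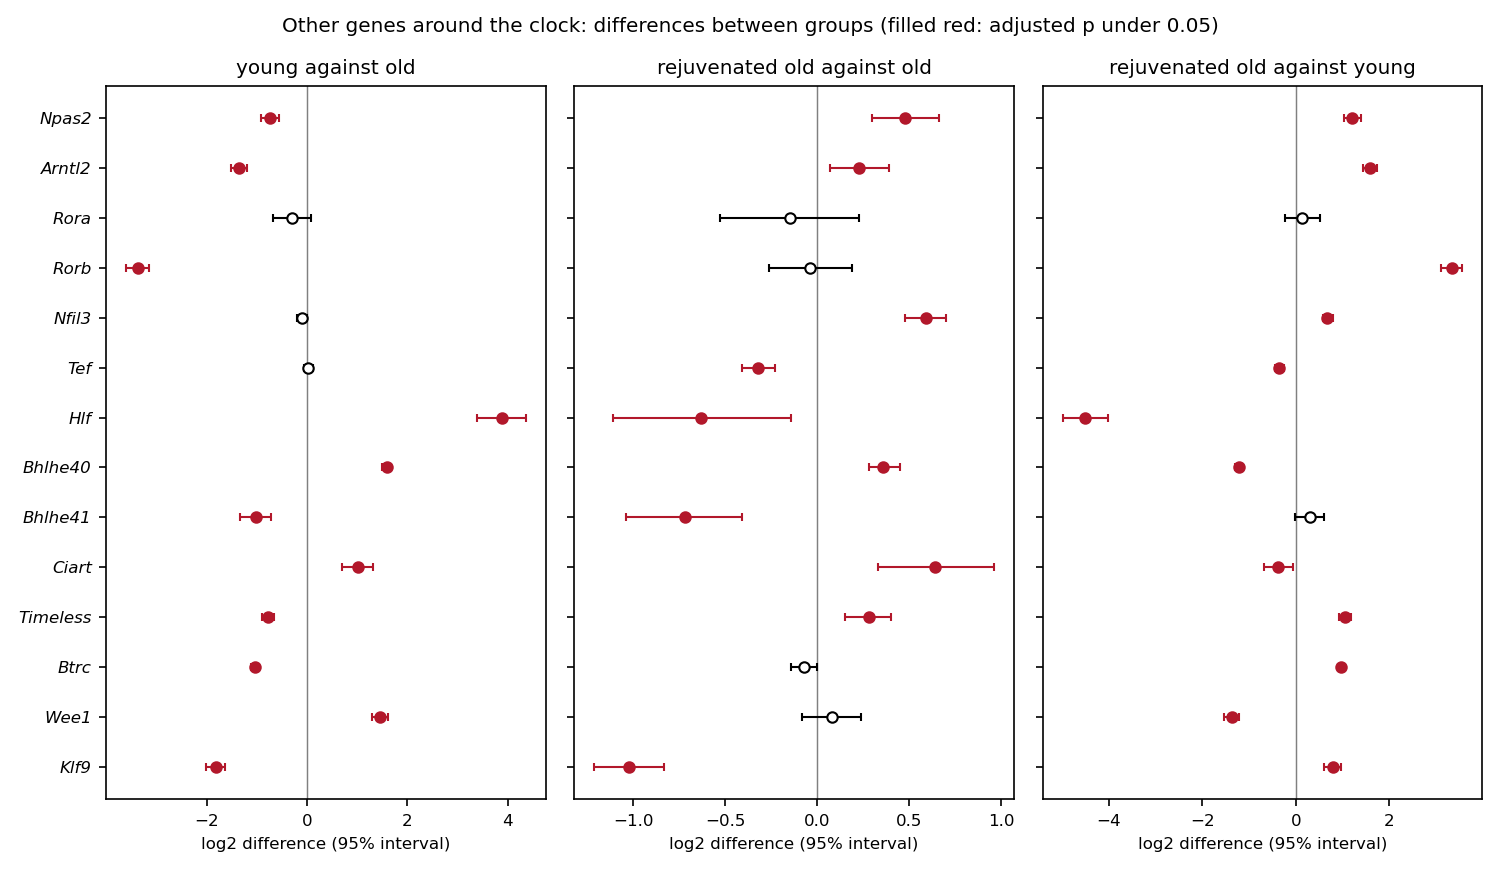
Log2 differences of group means with 95% intervals (x axis, with its own range in each panel) for 14 further genes around the clock (y axis) in the 3 comparisons. Filled red points have an adjusted p under 0.05 and open points do not. Rorb at −3.37 and Hlf at 3.88 span the young against old panel, and Nfil3 at 0.59 and Klf9 at −1.02 stand on opposite sides in the rejuvenated old against old panel.

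Enzymes and cofactors that act on the clock proteins, a list of 14 with casein kinases, F-box proteins and the corepressors of REV-ERB, were called in 9 of 14 between young and old, 4 higher and 5 lower, beside 85.7% of all genes. Between rejuvenated old and old MSCs 4 of 14 were called, all lower, beside 41.6%. Their median absolute log2 differences were 0.31 and 0.06, under the 0.60 and 0.15 of all genes. Btrc, which marks PER proteins for breakdown, had 881 to 941 normalized counts in young, 1788 to 1987 in old and 1715 to 1823 in rejuvenated old MSCs, a difference of −1.04 for young against old (adjusted p = 1.03e-18). Against old, rejuvenated old cells were at −0.07 (adjusted p = 0.092). Of 6 output genes, 5 were called between young and old MSCs, 2 higher and 3 lower, beside 85.7% of all genes, and 3 between rejuvenated old and old, all lower, beside 41.6%. Wee1, a cell cycle kinase under E-box control, had 632 to 735 normalized counts in young, 221 to 302 in old and 234 to 311 in rejuvenated old MSCs (1.45 for young against old, adjusted p = 3.6e-14). Centred on the chromosome 7 median, the Wee1 difference between young and old was 0.85 (adjusted p = 7.48e-10). Wee1 was not called after co-culture, at 0.08 (adjusted p = 0.437). Klf9, a factor induced by glucocorticoids as well as by the clock, had 313 to 403 in young, 1106 to 1501 in old and 473 to 714 in rejuvenated old MSCs. The 3 Klf9 ranges did not overlap, and the differences were −1.82 for young against old (adjusted p = 9.96e-15) and −1.02 for rejuvenated old against old (adjusted p = 7.82e-09).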

How the data were processed

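RNA of 18 MSC cultures was sequenced. Per the labels and the study's methods, the authors aligned reads to mm10 with HISAT2, used StringTie and featureCounts, and normalized with DESeq2; versions, annotation and strand setting are not given in the sources used here. What was deposited is a signal for each gene, its reads divided by a size factor. Values were whole multiples of 1 read (100% within 0.01 read), so reads were recovered. Limma 3.58.1 in R 4.3.3 was fitted to log2(value + 1) over 14353 genes with a mean of at least 10, with all 3 groups in 1 fit. EdgeR 4.0.16 and DESeq2 1.42.0 on recovered reads, other scalings, filters and pseudocounts, a replicate block, chromosome centring and 18 fits without 1 library each were alternatives. Python 3.11.15 with pandas 2.3.3, numpy 2.4.6, scipy 1.17.1 and matplotlib 3.10.9 made summaries and plots. The limma step was tested on simulated data.

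All 45 pairs of libraries within a group differed beyond sampling noise, at a chi-square of 2.57 to 23.3 for each degree of freedom. Members and gene lists were chosen with earlier results of these data known. All 10 members are described. From the other lists, genes with an absolute log2 difference of at least 1 and a call in any comparison are named, plus Npas2, Rora, Nfil3, Tef, Bhlhe40, Bhlhe41 and Ciart. Of these 15 genes, 1 is not reported here. Likeness genes are the 3 with the highest r, passing over predicted genes. Chromosomes and positions are from RefSeq on GRCm38.p6, and merged exon lengths from GENCODE M21.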

Additional observations from a re-analysis of the deposited data

Results flagged for a closer look

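A library far from the other 5 of its group was found in 4 of 75 sets of 6 values tested, and chance alone gives about 1 in 20. Among the clock genes this was young replicate 3 for Per1, at 918 normalized counts where the other young libraries had 1009 to 1036. In rejuvenated old MSCs, Rorb was at 188 in replicate 6 (others 157 to 166), Btrc at 1715 in replicate 3 (others 1783 to 1823) and Klf9 at 473 in replicate 5 (others 645 to 714).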

How the results depend on the processing

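The number of clock genes called was 7 to 8 of 10 for young against old, 2 to 4 for rejuvenated old against old and 7 to 8 for rejuvenated old against young when each library was left out in turn. It fell to 3, 0 and 3 when an absolute log2 difference of at least 0.5 was also required, which left 8069, 1239 and 7873 calls over all genes. With the replicate number as a block it was 8, 3 and 8, Per3 being called against both old (adjusted p = 0.0426) and rejuvenated old (0.0421) from the young side. The numbers did not pair the samples: same-numbered libraries correlated at −0.1517 to 0.07357 over 18 pairs, and 2 of 36 correlated best with their own number.

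Centring by chromosome turned Arntl to −0.03, Per2 to 0.38, Dbp to −0.45, Nfil3 to 0.22 and Tef to −0.17 for young against old, and Per2 to −0.53 and Dbp to 0.16 for rejuvenated old against young. Nr1d1, young against old, was 0.07 at the same total, 0.03 at the same 75th percentile, 0.04 after quantile normalization, 0.01 by DESeq2 and −0.03 to 0.01 without single libraries. Per3, rejuvenated old against old, was −0.02 at the same total, −0.01 after quantile normalization and −0.06 to 0.04 without single libraries. Rora, rejuvenated old against young, was −0.04 after quantile normalization and 0.00 to 0.24 without single libraries. Tef, young against old, ran from 0.00 to 0.05 and Rorb, rejuvenated old against old, from −0.08 to 0.02 without single libraries. The correlation of Arntl and Dbp in old MSCs was −0.01 and became 0.01 at the same total. The cause of these shifts was not tested.

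Some differences not called became calls. For young against old these were Dbp at the same total (0.22, adjusted p = 0.024) and after quantile normalization (0.19, adjusted p = 0.0478), Per3 in a fit of those 2 groups (0.0307) and without old replicate 3 (0.0434), Rora when centred (0.0221), Tef at the same total (0.0452) and Nfil3 without young replicate 5 (0.0433). For rejuvenated old against old they were Per1 without rejuvenated old replicate 4 and Per2 in a fit of those 2 groups (both 0.0413), and Btrc at the same total (0.046) and when centred (0.0483). For rejuvenated old against young they were Per2 without any 1 of 4 libraries (0.036 to 0.0494), Per3 without rejuvenated old replicate 1 (0.0341), and Bhlhe41 when centred or without any 1 of 5 libraries (0.0264 to 0.0497). A single time point, an unknown hour of harvest and no old-with-old culture limit what these levels can show.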

Other observations

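The genes Klf10, Por and Usp2 were chosen after their values were seen. Klf10, an output gene, had 483 to 646 normalized counts in young, 448 to 566 in old and 279 to 400 in rejuvenated old MSCs. All rejuvenated old libraries lay below the 12 others, with log2 differences of −0.59 against old (adjusted p = 1.5e-05) and −0.62 against young (adjusted p = 1.09e-06). Por, the electron donor of cytochrome P450 enzymes and an output gene as well, had 3065 to 3354 in young, 3307 to 3689 in old and 2522 to 2716 in rejuvenated old MSCs, with differences of −0.41 against old (adjusted p = 8.45e-10) and −0.30 against young (adjusted p = 5.83e-09). Klf10 and Por thus had rejuvenated old libraries below all those of both other groups. In the lists of clock genes the same held for Tef and the casein kinase gene Csnk1d, while Nfil3 and Npas2 lay above both groups. Csnk1d was not called against old (adjusted p = 0.0609). Genes with rejuvenated old libraries between the other groups, such as Klf9 and Bhlhe40, are left out of this list. The share of all genes lying below or above both groups was not counted. Rejuvenated old libraries did not overlap the old ones in 22.0% of all genes, nor the young ones in 70.5%. Usp2, a deubiquitinase that acts on clock proteins, had 74.9 to 132 in young, 180 to 211 in old and 131 to 168 in rejuvenated old MSCs, with differences of −0.82 for young against old (adjusted p = 4.4e-07) and −0.38 for rejuvenated old against old (adjusted p = 0.00919).

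Over the 18 libraries, the deviations of Clock and Arntl from their group means went together (r = 0.66), and those of Nr1d1 went against Clock (r = −0.64) and with Dbp (r = 0.58) and Per1 (r = 0.58). Cry1 went against Dbp (r = −0.64). These values share library and size factor, pool 3 groups and have no test.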
